A study of Mus musculus with 30 samples.

Results

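Open chromatin far from gene starts was followed in mouse marrow-derived mesenchymal stem cells (MSCs) in which the actin cytoskeleton had been altered with CK666 or cytochalasin D (CytoD). The windows described lie on chromosomes 1 to 19 of the mouse, and their nearest edge is more than 50 kb from the start of every transcript of every protein-coding gene. Of the 305931 windows of the table, 298808 are autosomal, and 81199 of these met the rule (27.2% of the autosomal windows). They divide into 58282 intergenic windows, which overlap no protein-coding gene, 21549 intronic windows, which overlap a protein-coding gene but none of its exons, and 1368 exonic windows, which are given by counts only. From the windows of the table, all were chosen by position alone. The windows themselves are peaks called from measured accessibility, and shares of calls are over those that passed a filter on counts.

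The libraries were ATAC-seq libraries of 50000 cells each made with Omni-ATAC, where a transposase inserts sequencing adapters into accessible DNA. Of 9 libraries, 3 came from control MSCs, 3 from MSCs kept for 24 h with CK666, and 3 from MSCs kept for 24 h with CytoD. A separate set of 6 libraries, 3 control and 3 with CK666, was made after 4 h. The labels do not say whether control cells received vehicle. All groups share the same origin, a primary culture from the marrow of male C57BL/6J mice with no engineered allele. Since no source says that replicates came from separate cultures or animals, p-values measure the spread between these libraries, which may be technical. Total counts per library ran from 14122298 to 22352180 in control, from 19536094 to 21259528 with CK666 and from 14071301 to 19457534 with CytoD. Replicates had rank correlations of 0.872 to 0.916, and all were distinct. The start sites of 9 of 12 marrow stromal and mesenchymal genes lay in a tested window (Lepr, Thy1 and Eng did not), those of 0 of 6 blood genes did, and those of 2 of 4 endothelial genes (Cdh5 and Kdr) and 1 of 3 epithelial genes (Epcam) did.

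Accessible sites away from gene starts are mostly enhancers and insulators. Enhancers are bound by transcription factors and act on promoters that may lie far along the chromosome, they differ between cell types more than promoters do, and in fibroblast-like cells many of them carry AP-1 and TEAD motifs. Insulators are bound by CTCF, which anchors chromatin loops and is bound at largely the same places in many cell types. CK666 inhibits the Arp2/3 complex, which starts branches on actin filaments, while CytoD caps filament ends and, in MSCs, is followed by entry of actin into the nucleus. In an assay of many cells, a change in the share of cells with an open site and a change in how open the site is in each cell cannot be told apart.

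The sequences below are shown because they are the windows with the largest changes among those with at least 50 counts on average, 1 for each treatment, direction and kind of window. The Fhit window ranked first among intronic losses for both treatments, so the window in A830018L16Rik, the third in rank with CytoD, is added. The window of rank 2 with CytoD, in Wdr7, was passed over and its sequence is not shown. Its central 500 bp hold C/EBP and neither AP-1 nor TEAD, so the losses shown hold AP-1 more often than the ranking alone would give. Each is a stretch of 200 bases (GRCm38, forward strand, 5′ to 3′) from inside the window. Capitals mark matches on either strand to AP-1 (TGANTCA), TEAD (GGAATG) or C/EBP (TTGCNNAA), where N is any base. Within the central 500 bp, each stretch was placed to hold the most matches to these motifs or to that of CTCF.
Tpd52, gained with CK666, chr3:9117953-9118152: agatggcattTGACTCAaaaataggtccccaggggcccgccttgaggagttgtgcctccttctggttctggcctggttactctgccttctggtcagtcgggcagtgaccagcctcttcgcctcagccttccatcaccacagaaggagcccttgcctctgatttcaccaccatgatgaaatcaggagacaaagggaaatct
Dlgap1 intron, gained with CK666, chr17:70690362-70690561: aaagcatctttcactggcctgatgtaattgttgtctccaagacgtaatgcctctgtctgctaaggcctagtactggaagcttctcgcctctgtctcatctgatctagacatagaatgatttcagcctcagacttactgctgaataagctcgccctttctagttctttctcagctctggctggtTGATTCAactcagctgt
Mdga2, lost with both, chr12:67993575-67993774: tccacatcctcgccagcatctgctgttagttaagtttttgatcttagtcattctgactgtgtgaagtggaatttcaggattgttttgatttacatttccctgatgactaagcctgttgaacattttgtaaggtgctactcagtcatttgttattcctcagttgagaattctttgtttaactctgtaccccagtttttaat
Fhit intron, lost with both, chr14:9669885-9670084: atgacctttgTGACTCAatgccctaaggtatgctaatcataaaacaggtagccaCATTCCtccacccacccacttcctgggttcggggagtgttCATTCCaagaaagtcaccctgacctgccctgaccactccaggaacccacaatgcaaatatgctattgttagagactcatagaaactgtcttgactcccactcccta
Sh3rf1, gained with both, chr8:61160011-61160210: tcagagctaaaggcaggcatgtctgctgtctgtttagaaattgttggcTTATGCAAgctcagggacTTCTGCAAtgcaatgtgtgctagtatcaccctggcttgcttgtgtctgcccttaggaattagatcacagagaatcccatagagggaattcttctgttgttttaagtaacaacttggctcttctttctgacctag
Sema6d intron, gained with CytoD, chr2:124240047-124240246: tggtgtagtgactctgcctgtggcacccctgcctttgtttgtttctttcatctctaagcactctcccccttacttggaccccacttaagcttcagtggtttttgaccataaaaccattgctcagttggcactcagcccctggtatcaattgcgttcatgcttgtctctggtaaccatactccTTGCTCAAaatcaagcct
Fbxo4, lost with CytoD, chr15:3905577-3905776: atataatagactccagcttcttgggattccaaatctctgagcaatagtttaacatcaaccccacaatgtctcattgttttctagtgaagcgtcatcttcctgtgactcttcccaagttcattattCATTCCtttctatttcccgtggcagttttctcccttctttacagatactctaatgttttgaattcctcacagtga
A830018L16Rik intron, lost with both, chr1:11845759-11845958: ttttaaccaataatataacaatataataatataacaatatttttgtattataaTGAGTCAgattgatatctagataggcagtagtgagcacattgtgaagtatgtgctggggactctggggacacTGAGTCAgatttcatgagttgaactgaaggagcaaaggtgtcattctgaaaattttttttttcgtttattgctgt
The first pair, which gained with CK666, holds 1 AP-1 match each. Both stretches that gained with CytoD hold C/EBP matches and no AP-1 match, with 2 in the Sh3rf1 stretch and 1 in the Sema6d stretch. Among the losses, the stretch in the Fhit intron holds 1 AP-1 and 2 TEAD matches and that in the A830018L16Rik intron 2 AP-1 matches. The Fbxo4 stretch holds 1 TEAD match and the Mdga2 stretch none of these motifs. Other named windows differ over their central 500 bp. The gains with CK666 near Pudp and Gpc6 and in Naaladl2 and Nbea hold no AP-1 match. The gains with CytoD near Pde3b and Pcdh17 and in Kcnc2 and Celf2 hold no C/EBP match, and that near Pde3b holds AP-1. No other named loss holds AP-1. Those near Stim2 and Tom1l1 and in Sugct and Hmgcll1 hold TEAD, and those near Mark1 and in Wdr7 hold C/EBP. A match is a description of the letters and not of a bound factor, and a window is named by its host gene or by the nearest protein-coding start, which need not be the gene it acts on.

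Intergenic windows lay 138 kb from the nearest protein-coding start in the median, with quartiles at 81.3 and 270 kb and a maximum of 2689 kb. Intronic windows lay closer, at 90.3 kb in the median, and at most 1098 kb away. In all, 6116 windows (7.53%) were more than 500 kb from any such start. The rule looks at protein-coding genes only. Starts of other transcripts, mostly of noncoding genes, fell inside 1251 of the windows (1.54%), 10464 intergenic windows (18.0%) overlapped a gene of another type, and 32213 windows (39.7%) were more than 50 kb from the start of any annotated transcript.

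The windows far from starts were shorter, poorer in G and C and less open than windows at starts. Median length was 633 bp for the 78945 windows that passed the filter on low counts, compared with 985 bp for windows that hold a protein-coding start, and median GC content was 44.4% compared with 57.4%. The median level was 1.38 CPM per kb, against 5.53 CPM per kb in windows at starts and 1.44 in windows within 50 kb of one. The filter left out 2254 of the 81199 windows. As a group, the intergenic windows held 14.4 ± 0.057% (SD, n = 3) of all autosomal counts in control libraries, 13.97 ± 0.166% with CK666 and 14.1 ± 0.046% with CytoD. Every treated library lay below every control library, whose lowest value was 14.36%. Intronic windows held 5.19 ± 0.040%, 5.07 ± 0.072% and 5.18 ± 0.027%, and only the CK666 libraries did not overlap with control.

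Windows were spread unevenly over the chromosomes. Chromosome 10 had 52.9 tested distal windows per Mb and chromosome 7 had 17.6. Most of that range came from weak windows. For the 2 lowest of 5 openness bins, defined further on, the density ran from 6.24 per Mb on chromosome 4 to 26.2 on chromosome 10, a ratio of 4.20, and for the highest bin from 3.51 on chromosome 11 to 7.57 on chromosome 10, a ratio of 2.15.

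**Figure D1:**
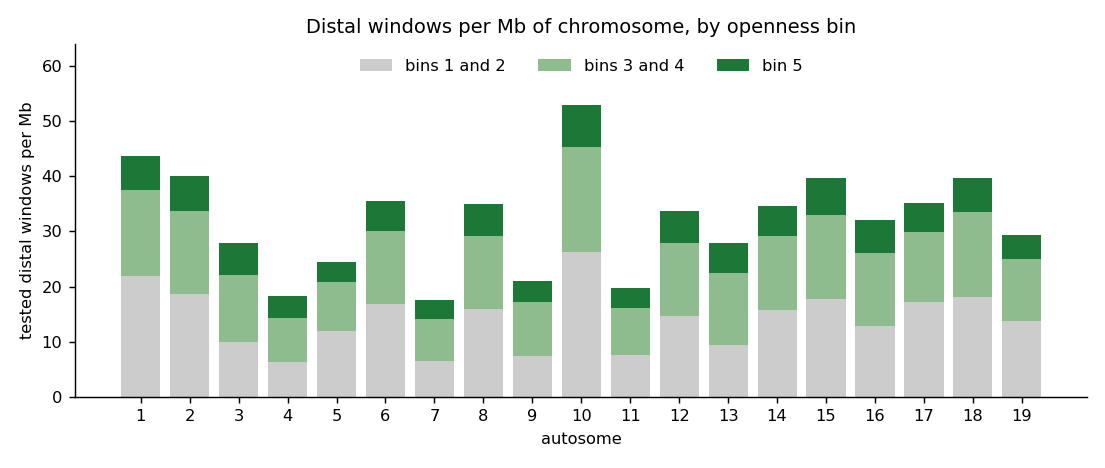
Tested windows more than 50 kb from a protein-coding start per Mb of each autosome, stacked by openness bin (bins 1 and 2, 3 and 4, and 5, from the least to the most open). The total runs from 17.6 per Mb on chromosome 7 to 52.9 per Mb on chromosome 10, and the dark part, the most open bin, varies less than the light part.

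With CK666, 1756 of the 78945 tested distal windows gained accessibility (2.22%) and 1168 lost it (1.48%) at 24 h, where a call is an adjusted p under 0.01 in edgeR's quasi-likelihood test and a log2 fold change beyond 1. Over all 300323 tested windows of the genome, 1.88% gained and 1.05% lost. Intergenic windows had 1247 gains (2.20%) and 916 losses (1.62%), intronic windows 477 gains (2.27%) and 237 losses (1.13%), and exonic windows 32 and 15. In windows within 50 kb of a start the shares were 1.82% and 0.934%, and in windows that hold a start 0.685% and 0.258%. These classes differ in openness and depth, and their difference was not tested. Of the 2924 called distal windows, 2914 had CK666 and control libraries that did not overlap. Over all autosomal windows this held for 8423 of 8462 called, so it is no trait of the distal ones. The excess of gains depended on the limits. With an adjusted p under 0.05 and no fold limit, 2955 intergenic windows were higher and 3248 lower, and 1091 and 1056 intronic ones, and with only windows of at least 20 counts on average the calls were 983 and 951 intergenic and 383 and 245 intronic. The size of the change was larger among gains, with a median log2 fold change of 1.77 in intergenic and 1.66 in intronic windows, than among losses, with -1.27 and -1.25.

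The share of intergenic windows called with CK666 was higher farther from starts, a difference that was not tested. Between 50 and 100 kb, 2.04% of intergenic windows gained and 1.47% lost with CK666, and beyond 500 kb 2.50% gained and 1.92% lost. Around the limit itself, the 9485 windows just outside 50 kb, up to 60 kb, had 2.06% gains and 1.39% losses, and the 12533 windows at 40 to 50 kb had 1.91% and 1.34%. The median log2 fold change was 0.00 for intergenic and -0.01 for intronic windows, with 0.02 over all autosomal windows.

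The largest intergenic gain with CK666, among called windows averaging at least 50 counts, was at chr3:9117812-9118320, 113 kb from the start of Tpd52. This gene codes for a protein of vesicle traffic. Control libraries had 10.4, 5.12 and 5.36 normalized counts, CK666 libraries 185, 180.0 and 165, and CytoD libraries 7.63, 14.6 and 12.8. The CK666 libraries stood apart from the other 6, which overlapped. The log2 fold change with CK666 was 4.72 (standard error 0.29, adjusted p = 5.05e-24), and with CytoD 0.83 (adjusted p = 0.233).

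An intron of Dlgap1, which codes for a scaffold protein of synapses, held the largest intronic gain under the same limit, at chr17:70690118-70690667. Its counts were 6.49, 13.6 and 11.6 in control, 235, 251 and 266 with CK666, and 12.7, 7.28 and 12.8 with CytoD. Nothing separated the CytoD libraries from control there, and the log2 fold changes were 4.49 (standard error 0.23, adjusted p = 9.32e-28) with CK666 and 0.00 (adjusted p = 0.996) with CytoD. Since the windows named had to average at least 50 counts over the 9 libraries, those that are low in control and with CytoD are named only where CK666 libraries are high, and their levels are given as a description. The window 171 kb from Gpc6, a cell surface proteoglycan, on chromosome 14 from 116753327 to 116753838, rose from a mean of 10.2 to 141 counts (log2 fold change 3.67). The window in Nbea, a gene of vesicle traffic, at chr3:55909213-55909781 rose from 12.1 to 142 (3.54). The window in Naaladl2 at chr3:24076985-24077521 rose from 7.85 to 128 (3.92), and there CytoD also gave a call, at a mean of 24.8 counts (1.56). The intergenic window 254 kb from Pudp rose from 9.29 to 143 (3.99), and CytoD libraries had a mean of 7.95.

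The same limit asks for a high level outside the CK666 group in the losses that are named. At chr12:67993395-67993954, 771 kb from Mdga2, a cell adhesion gene of neurons, control libraries had 174, 182 and 175 counts and CK666 libraries 39.3, 34.8 and 31.6. CytoD libraries had 45.8, 78.9 and 66.7, between both. The log2 fold changes were -2.33 (adjusted p = 1.89e-16) and -1.47 (adjusted p = 2.82e-09), and both are calls. The deepest named loss was intronic, at chr14:9669750-9670333 in Fhit, a gene of nucleotide metabolism within a fragile site, 751 kb from its nearest start. Its counts were 148, 168 and 115 in control, 13.1, 14.8 and 10.9 with CK666 and 30.5, 18.2 and 26.5 with CytoD. Every treated library lay below every control library, and every CK666 library below every CytoD library. The log2 fold changes were -3.46 (standard error 0.26, adjusted p = 1.03e-18) and -2.51 (standard error 0.24, adjusted p = 2.24e-13).

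At 4 other losses with CK666, CytoD libraries stayed higher, and the direct contrast of both treatments was a call in each. At chr1:185086273-185086888, 86.7 kb from Mark1, a kinase that acts on microtubules, the counts were 61.0 to 80.3 in control, 19.7, 8.70 and 16.8 with CK666 and 73.8, 68.0 and 78.6 with CytoD. There the direct contrast was -2.29 on the log2 scale (adjusted p = 7.57e-10). In an intron of Sugct, an enzyme of organic acid metabolism, at chr13:17438782-17439387, control libraries had 74.0 to 78.4 counts, CK666 libraries a mean of 17.2 and CytoD libraries 76.3 to 97.1. In an intron of Hmgcll1 at chr9:76069133-76069679 the mean fell from 225 to 61.2 counts with CK666 (log2 fold change -1.87) and was 137 with CytoD, where the log2 fold change of -0.72 did not reach the fold limit. At chr5:54753134-54754088, 637 kb from Stim2, a calcium sensor of the endoplasmic reticulum, it fell from 146 to 32.2 with CK666 and to 71.1 with CytoD.

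**Figure D2:**
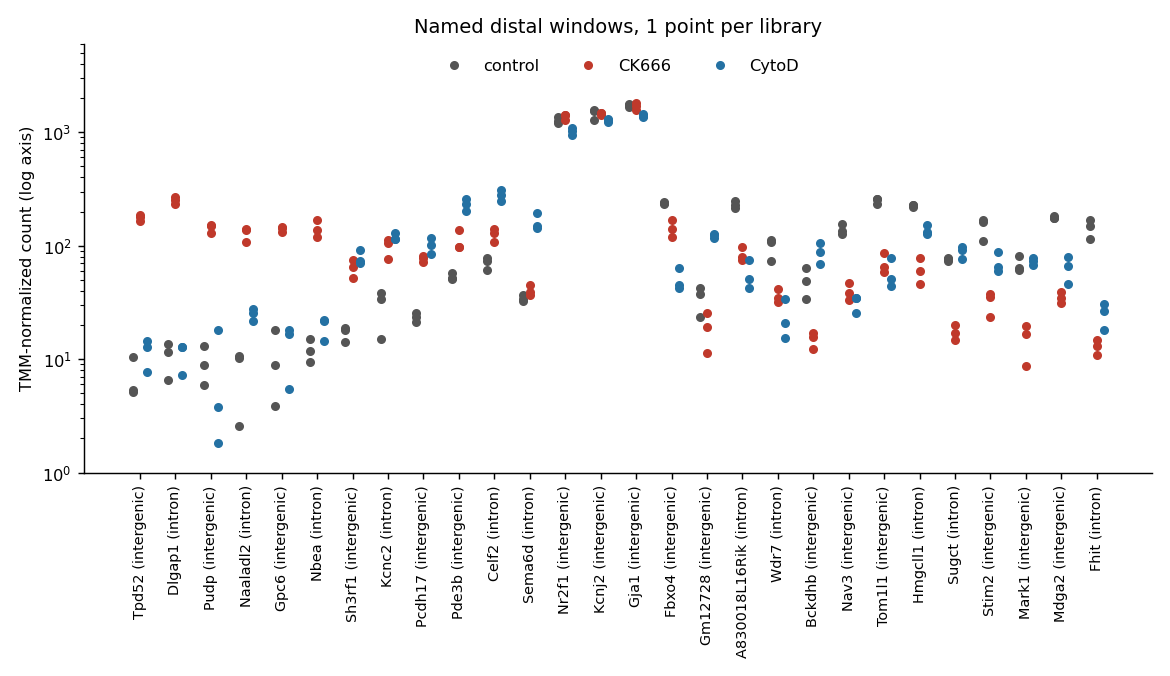
TMM-normalized counts (log axis) of the named distal windows in each of the 9 libraries, ordered by the log2 fold change with CK666, with 1 point per library for control, CK666 and CytoD. On the left, in the windows of Tpd52, Dlgap1 and the others that gained with CK666, the red points stand well above the grey ones, while the 3 most open far windows (Gja1, Kcnj2 and Nr2f1) keep all 9 points at 944 counts or more.

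With CytoD, losses outnumbered gains. Of the distal windows, 907 gained (1.15%) and 1468 lost (1.86%), compared with 0.98% and 1.4% over all tested windows. The 2 kinds of window differed in their balance, with 632 gains (1.12%) and 1143 losses (2.02%) in intergenic windows and 258 gains (1.23%) and 302 losses (1.44%) in intronic ones. Groups did not overlap in 2353 of the 2375 called windows, and in 6857 of the 6923 called over all autosomal windows. Scaling moved this balance. When libraries were scaled by their totals alone, 812 intergenic windows gained and 836 lost, and 328 intronic windows gained and 214 lost, and with factors from windows at starts the counts were 780 and 850, and 320 and 216. With openness offsets, added after seeing the data, the intronic counts were 276 and 213, and with only windows of at least 20 counts on average 287 and 224. Losses outnumbered gains among intergenic windows under each of these, and not among intronic ones. The gains also rested on single libraries, since 409 intergenic and 162 intronic windows gained without CytoD replicate 2, and 420 and 159 without CytoD replicate 3. In that setting of totals alone, the median log2 fold change over all autosomal windows with CytoD was 0.12, compared with 0.04 here. Beyond 500 kb, 0.700% of the intergenic windows gained and 2.26% lost, and between 50 and 100 kb 1.16% and 1.76%.

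The largest intergenic loss with CytoD, among called windows averaging at least 50 counts, was at chr15:3905378-3905976, 66.0 kb from Fbxo4. This gene codes for a part of a ubiquitin ligase. Counts were 232, 244 and 237 in control, 169, 120.0 and 141 with CK666 and 63.6, 44.9 and 42.0 with CytoD. The 3 groups were apart from each other, with log2 fold changes of -2.26 (standard error 0.17, adjusted p = 2.96e-18) with CytoD and -0.73 (adjusted p = 9.21e-05, short of the fold limit) with CK666. In other windows of this kind CK666 also gave a call. At chr11:91071680-91072234, 383 kb from Tom1l1, the mean fell from 249 counts to 57.5 with CytoD (log2 fold change -2.14) and 70.2 with CK666 (-1.82), and the direct contrast was 0.32 (adjusted p = 0.329). At chr10:109536551-109537130, 187 kb from Nav3, which codes for a microtubule-binding protein, it fell from 139 to 31.5 and 39.5 (-2.13 and -1.81). In the intron of A830018L16Rik at chr1:11845596-11846121, whose stretch holds 2 AP-1 matches, it fell from 231 to 56.1 and 84.0 (-2.01 and -1.46). An intronic window of Wdr7, 103 kb from its start, fell from 97.9 to 23.4 and 36.0 (-2.08 and -1.46).

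Among the named windows, the largest gains with CytoD were smaller than those with CK666, with log2 fold changes of 2.24 and less. In an intron of Sema6d, a membrane-bound semaphorin, at chr2:124239802-124240363, control libraries had 33.7, 32.4 and 36.6 counts, CK666 libraries 36.5, 39.1 and 45.4, and CytoD libraries 196, 142 and 149.9. Only CytoD gave a call there (log2 fold change 2.24, standard error 0.21, adjusted p = 5.78e-14), and the direct contrast was -2.01 (adjusted p = 5.42e-13). An intron of Celf2, a splicing regulator, at chr2:6950600-6951262 had 60.5 to 78.5 counts in control, 108 to 141 with CK666 and 246 to 308 with CytoD. The window 58.4 kb from Pde3b, which degrades cAMP in fat cells, at chr7:114356372-114356892 went from a mean of 53.6 counts to 111 with CK666 and 230.4 with CytoD, log2 fold changes of 1.03 and 2.10, and the direct contrast of -1.07 is a call (adjusted p = 6.9e-08).

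Elsewhere both treatments raised the same window by amounts that the direct contrast did not separate. At chr8:61159824-61160397, 63.5 kb from Sh3rf1, a scaffold protein with ubiquitin ligase activity, counts were 18.2, 18.8 and 14.3 in control, 74.9, 52.2 and 65.1 with CK666 and 69.9, 92.3 and 74.0 with CytoD. The log2 fold changes were 1.90 and 2.20, with a direct contrast of -0.30 (standard error 0.23, adjusted p = 0.456). The window 484 kb from Pcdh17, a protocadherin, at chr14:83959031-83959593 rose from a mean of 23.5 counts to 76.9 and 101, and the one in Kcnc2, a potassium channel gene, at chr10:112368496-112369028 from 29.1 to 97.9 and 119.6.

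Set directly against each other, CK666 and CytoD differed at 2066 distal windows that were higher with CK666 and 1189 that were lower. Over all tested windows 2.15% were higher and 1.13% lower. Intergenic windows gave 1521 (2.69%) and 844 (1.49%), and intronic windows 516 (2.46%) and 323 (1.54%). This balance also moved with the scaling, to 1156 and 1175 intergenic windows with factors from windows at starts and to 1228 and 1113 with total counts only, and for intronic windows to 398 and 422 and to 421 and 403. With only windows of at least 20 counts on average it was 1130 and 1023 intergenic and 378 and 393 intronic windows. Among windows averaging at least 50 counts, the Dlgap1 intron and the window near Pudp were the most raised with CK666. Their direct contrasts were 4.49 (adjusted p = 6.52e-27) and 4.23 (adjusted p = 5.16e-18). Under the same limit, the most lowered was at chr4:105655963-105656617, 133 kb from Gm12728. It had 23.4, 37.5 and 42.0 counts in control, 11.2, 19.1 and 25.6 with CK666 and 126, 117 and 125 with CytoD, so that its log2 fold change was 1.80 with CytoD (adjusted p = 1.01e-08) and -0.91 with CK666 (adjusted p = 0.0304). Next came a window 474 kb from Bckdhb, a gene of branched-chain amino acid breakdown, at chr9:84581045-84581655, with means of 48.8 counts in control, 14.9 with CK666 and 87.3 with CytoD.

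Windows were then ordered by openness, the mean normalized CPM per kb over the 9 libraries, in 5 bins of equal size over all tested autosomal windows, with limits at 1.02, 1.28, 1.81 and 4.26 CPM per kb. Of the intergenic windows, 13790 were in the least and 9491 in the most open bin. Losses gathered among open windows. With CK666, 0.0798% of the intergenic windows of the lowest bin and 5.34% of the highest lost accessibility, and with CytoD 0.0725% and 7.29%. For intronic windows of the highest bin the losses were 3.797% and 5.623%. In the same bin, 2.81% and 4.41% of windows within 50 kb of a start were lost, and 0.315% and 0.369% of windows that hold one. Weak windows had few counts, 10.9 on average in the median intergenic window of the lowest bin, so that a fall of 2-fold there is hard to detect.

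Where gains lay depended on which libraries defined openness. By the mean of all 9 libraries, gains with CK666 peaked in the next to highest bin, at 4.85% of intergenic and 4.92% of intronic windows. That order includes the treated libraries, so a window that opened is moved up by its own gain. The control libraries of the 4 h experiment give a baseline from other libraries, for windows that overlapped a window tested at 4 h. It has 9032 intergenic windows in the lowest and 7048 in the highest bin. The windows are called peaks that passed a filter on the counts of all 9 libraries. A window weak in control may therefore be listed only because treated libraries opened it, which would place gains in the lowest bin. The part of this was not tested. By that baseline, gains with CK666 went from 4.00% of intergenic windows in the lowest bin down to 1.18% in the highest, and losses from 0.0886% up to 7.02%. With CytoD, gains went from 1.74% down to 0.170% and losses from 0.0221% up to 11.8%. For intronic windows the gains went from 3.82% to 1.62% with CK666 and from 1.82% to 0.0808% with CytoD, and the losses in the highest bin were 4.85% and 9.38%. The same order was seen in windows within 50 kb of a start. There gains with CK666 went from 3.18% in the lowest to 0.905% in the highest bin, and losses from 0.0710% to 3.91%. With CytoD, gains there went from 1.34% to 0.100% and losses from 0.0372% to 7.31%. Windows that hold a start had 0.340% and 0.527% losses in the highest bin of this baseline.

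The median window was graded with openness as well. In the lowest bin of the 9-library order, the median level per library of intergenic windows was 8.93 to 10.4 normalized counts in control, 9.86 to 10.4 with CK666 and 12.1 to 12.8 with CytoD. In the highest it was 105 to 116, 103 to 109 and 96.7 to 100.8. CytoD libraries were therefore above all others in the weakest windows and below all others in the strongest. The median log2 fold change with CytoD ran over the 5 bins through 0.38, 0.11, 0.05, -0.05 and -0.19. It did so near starts as well, from 0.41 to -0.15 within 50 kb and from 0.48 to -0.12 in windows that hold a start. With CK666 it lay between 0.02 and -0.06 in intergenic windows in this order. By the 4 h controls, a baseline from other libraries with the limits given above, both treatments were graded. Intergenic medians were 0.15, 0.02, -0.05, -0.11 and -0.17 with CK666. With CytoD they were 0.26 in the lowest and -0.39 in the highest bin. Within 50 kb of a start the medians by this baseline went from 0.16 to -0.10 with CK666 and from 0.24 to -0.28 with CytoD. CytoD libraries were also the shallowest, with a median total of 14986903 counts against 21651442 in control, and the part of depth in this was not tested.

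**Figure D3:**
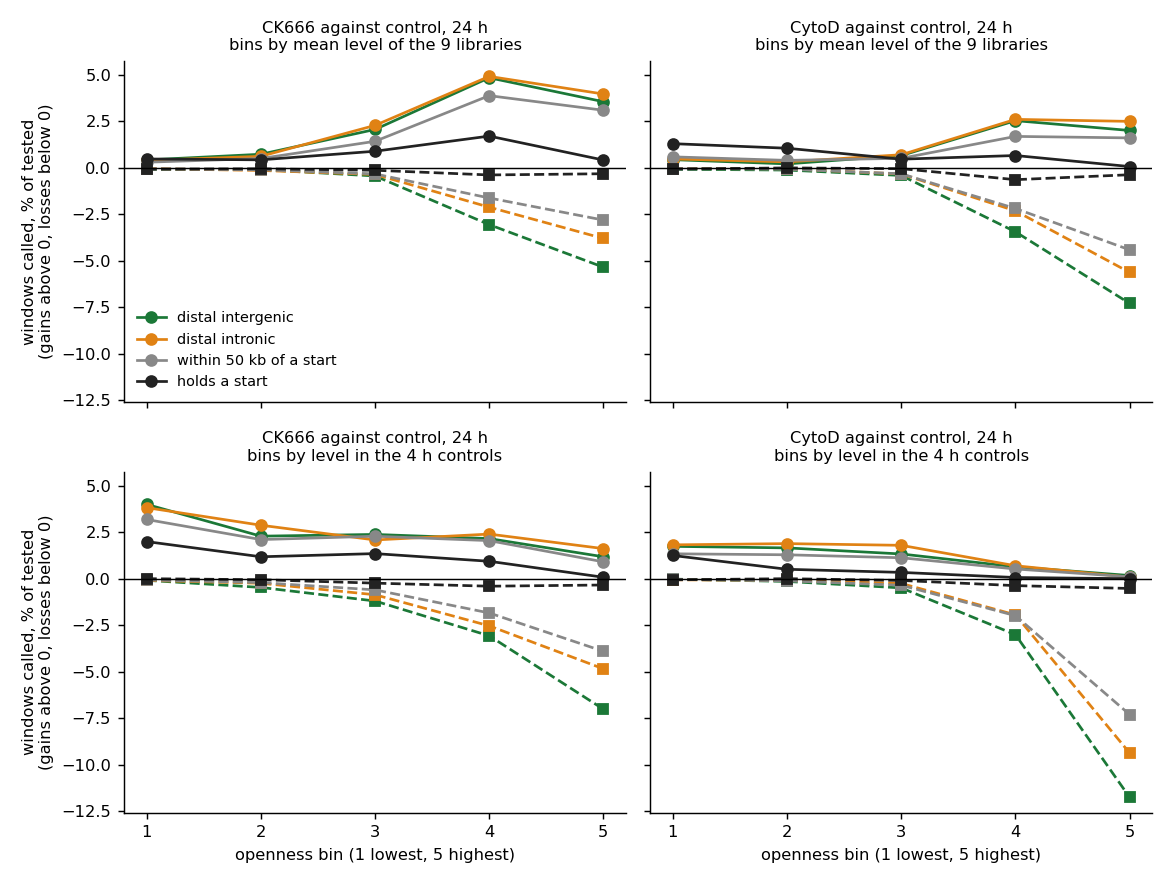
Percent of tested windows called as gained (solid lines, above 0) or lost (dashed lines, below 0) at 24 h in 5 openness bins. Lines are distal intergenic and intronic windows, windows within 50 kb of a start and windows that hold one. Bins are set by the mean of the 9 libraries (top) or by the 4 h control libraries (bottom). In distal windows and those within 50 kb of a start, losses deepen with openness in both rows. They reach 7.29% (top) and 11.8% (bottom) of intergenic windows with CytoD. In windows that hold a start, losses in the top row go from 0.380% in bin 4 to 0.315% in bin 5 with CK666, and from 0.634% to 0.369% with CytoD. Gains with CK666 in intergenic windows peak in the next to highest bin in the top row (4.85%) and are lowest in the highest bin in the bottom row (1.18%).

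Windows that gained and windows that lost differed in motif content, which was described and not tested. Motifs were searched by letters on both strands of the central 500 bp. AP-1, a family of factors of growth and stress signals formed by Fos and Jun proteins, was matched by TGANTCA, and its letters were found in 27.0% of all tested autosomal windows and 31.9% of the distal ones. They were found in 59.7% of the distal windows lost with CytoD (876 of 1468) and in 14.2% of those gained (129 of 907). With CK666 the shares were 45.2% among losses and 33.8% among gains. TEAD factors, which carry YAP and TAZ to DNA, were matched by GGAATG, in 31.9% of distal windows. That motif was in 44.6% of losses and 27.6% of gains with CK666, and in 48.4% and 24.3% with CytoD. C/EBP factors, which act in fat cell and myeloid differentiation, were matched by TTGCNNAA, in 24.6% of distal windows, and here the order turned, as 43.6% of gains with CytoD held it and 21.9% of losses. With CK666 it was in 30.2% of gains and 32.1% of losses. Windows within 50 kb of a start were split in the same way, so this is no trait of the distal ones. With CytoD, AP-1 was there in 56.0% of losses and 13.3% of gains, TEAD in 43.1% and 25.5%, and C/EBP in 18.2% and 39.1%. With CK666 the shares there were 42.2% and 28.0% for AP-1, 42.0% and 26.2% for TEAD, and 28.6% and 25.7% for C/EBP.

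Open windows hold AP-1 more often in any case, so the shares were taken again in the 2 highest openness bins, a choice made after seeing where the calls lay. Among these 28441 distal windows, 40.6% had an AP-1 match, compared with 60.6% of the losses and 14.1% of the gains with CytoD and 46.3% and 37.2% with CK666. For TEAD the share was 33.9%, and it was 48.5% of losses with CytoD and 44.7% with CK666. For C/EBP it was 27.5%, and 48.1% of the gains with CytoD. Read the other way, 835 of the 11556 open windows with an AP-1 match lost accessibility with CytoD (7.23%) and 95 gained it (0.822%), while the 16885 without a match had 3.22% losses and 3.42% gains. The median log2 fold change was -0.29 with a match and 0.01 without. Where AP-1 and TEAD letters lay in the same window, losses with CytoD were 9.97% and gains 0.703% of 3843 windows. The 4753 windows with C/EBP and no AP-1 letters went the other way, with 5.98% gains and 2.48% losses and a median of 0.10. Under CK666 these groups differed less in their median, with -0.08 and -0.01 with and without AP-1, and none of these differences between groups of windows was tested. The openness order includes the treated libraries.

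The same differences were seen library by library. The mean log2 level of open distal windows with AP-1 letters was 0.25, 0.29 and 0.27 above that of windows without them in the control libraries, and 0.21, 0.21 and 0.19 with CK666. With CytoD it was -0.03, -0.02 and -0.01. The 3 groups did not overlap. Levels are log2 of the normalized count plus 1. Windows with AP-1 letters were also more open, at a median of 4.31 CPM per kb against 3.63 without them. Changes with CytoD were graded with openness, and the part of openness in this difference was not tested. For TEAD the difference was 0.16 to 0.17 in control and 0.04 to 0.05 with CK666, and 0.04 in each CytoD library. For C/EBP it was between -0.04 and -0.03 in control, between -0.05 and -0.03 with CK666 and between 0.11 and 0.12 with CytoD. The antioxidant response motif, TGACNNNGC, through which NRF2 acts, stood at 0.08 to 0.10 in control, at 0.15 to 0.16 with CK666 and at 0.03 to 0.05 with CytoD. RUNX letters, TGTGGT, moved little, with 0.08 to 0.09 in control, 0.06 with CK666 and 0.08 to 0.09 with CytoD. The CK666 libraries still lay below every control library there.

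**Figure D4:**
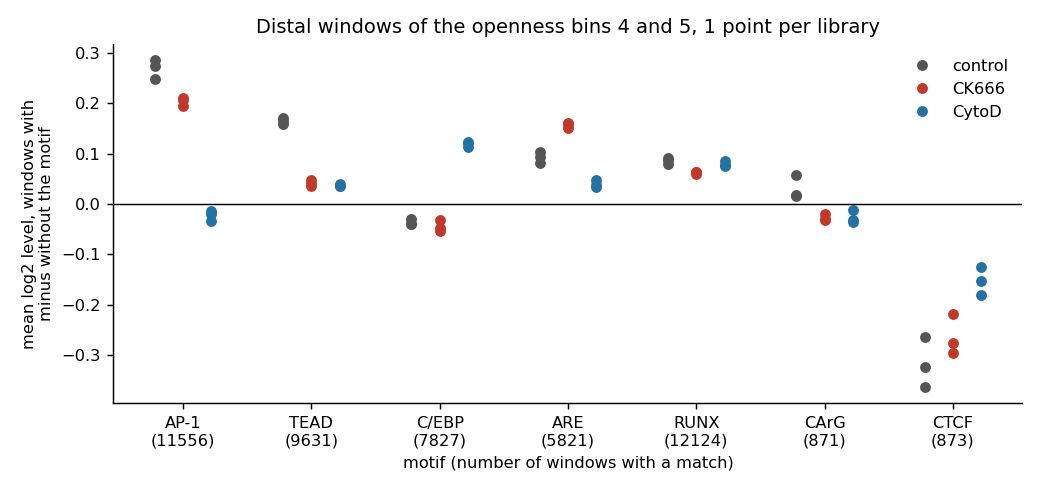
Mean log2 level of windows with a motif minus that of windows without it, for distal windows of the 2 highest openness bins, with 1 point for each of the 9 libraries and the number of windows with a match under each motif name. For AP-1 the control libraries stand at 0.25 to 0.29 and the CytoD libraries just below 0, for TEAD both treatments stand below control, and for C/EBP the CytoD libraries stand above the other 6.

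Few CTCF windows were called. Of the 873 open distal windows with the core motif of CTCF, 7 gained and 1 lost with CK666, and 1 gained and 1 lost with CytoD, while the 27568 open distal windows without it had 4.45% gains and 3.89% losses with CK666 and 2.44% and 4.99% with CytoD. Their median log2 fold changes were 0.05 and 0.07. Their level relative to windows without the motif did move, from -0.36 to -0.26 over the control libraries and -0.30 to -0.22 with CK666 to -0.18 to -0.13 with CytoD, and the CytoD libraries did not overlap with control. The CArG box, to which SRF and its actin-sensing partner MRTF bind, was found in 871 open distal windows, of which 69 lost accessibility with CytoD (7.92%), against 4.75% without it. With CK666 at 24 h the losses were 4.59% and 3.75%. At 4 h they were 2.92% of the windows with the box and 0.272% of those without.

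Distal windows fall into the intervals between neighbouring protein-coding genes and into the introns of long genes. Of 2550 intervals with a tested window, 976 had a call with CK666 and 861 with CytoD, and of 1474 host genes 423 and 362. Over all distal windows 2.22% gained and 1.48% lost with CK666, and 1.15% and 1.86% with CytoD. Over all tested windows the shares were 1.88% and 1.05%, and 0.98% and 1.4%. The intervals named here were picked for the most calls. The interval between Zeb2, a transcription factor of mesenchymal cells, and Acvr2a, an activin receptor, had the most calls with CK666, 12 gains and 13 losses among 332 windows over 3584 kb of chromosome 2. Gains and losses were also mixed between Adamts5 and N6amt1 on chromosome 16, with 11 gains and 9 losses among 189 windows, and between Dsel and Cntnap5a on chromosome 1, with 12 and 7 among 294. Between Adam34 and Fat1 there were 5 gains and 8 losses among 139 windows, and between Nudt12 and Efna5 6 and 7 among 172. With CytoD the most calls were between Nmbr and Cited2 on chromosome 10, where 18 of 209 windows lost and 2 gained, and the interval had 3 gains and 4 losses with CK666. Between Cdh11 and Cdh5, both cadherin genes, 9 windows gained and 4 lost with CytoD among 240.

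Among host genes, Dlgap2 had 5 gains and 1 loss with CK666 among 59 windows, Slc24a3 5 and 0 among 63, Lrrc4c 4 and 1 among 69, Magi1 4 and 2 among 117, and Rspo2 0 and 5 among 47. With CytoD, Aig1 had 0 gains and 6 losses among 35 windows, Cacna1c, a calcium channel gene, 0 and 5 among 40, Lrmda 1 and 5 among 63, Hdac9, a histone deacetylase gene, 4 and 3 among 68, and Sox5, a factor of cartilage development, 3 and 4 among 104. These genes were picked for the most calls, and the counts follow the number of windows that a gene holds as well as its share of calls. Over all distal windows 2.22% gained and 1.48% lost with CK666, and 1.15% and 1.86% with CytoD. Over all tested windows it was 1.88% and 1.05%, and 0.98% and 1.4%.

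Called windows of 1 direction within 20 kb of each other were joined into clusters. Clusters of at least 2 windows held 17.9% of the CK666 gains, 20.5% of the CK666 losses, 12.9% of the CytoD gains and 26.8% of the CytoD losses. The largest cluster of losses with CK666 lay at chr15:43008122-43022643, at the far end of Rspo2, whose product is a secreted enhancer of Wnt signals. Here 6 of 10 tested windows were called, and the counts summed over the 10 were 418, 271 and 285 in control, 109, 111 and 94.7 with CK666 and 368, 252 and 242 with CytoD. Control and CytoD libraries overlapped, and the CK666 libraries lay below both. The largest cluster of gains with CK666 was 130 to 176 kb from Kcna5 on chromosome 6, with 5 of 7 windows called and sums of 179 to 216 in control, 499 to 517 with CK666 and 233 to 294 with CytoD. In an intron of Tenm4, all 4 windows of a stretch of 35.6 kb gained with CK666, from 50.9 to 66.2 counts in control to 221 to 231.

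Lower levels with CK666 ran on through Rspo2. From the cluster through its introns, over 111 kb, 59 distal windows were tested, of which 11 lost and 0 gained with CK666, and 56 had a log2 fold change below 0. The sums over the 59 windows were 2389.6, 1767 and 1806 in control, 1284, 1150.4 and 1187 with CK666 and 1959, 1760.1 and 1605 with CytoD. All 3 CK666 libraries were below the other 6. The median log2 fold change was -0.92 with CK666 and -0.10 with CytoD, and in the direct contrast 7 windows were lower with CK666 and 0 higher. The span was set after the cluster was seen, so these counts are a description.

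The largest clusters of losses with CytoD held 4 called windows each. Those on chromosome 10 were near Sgk1, a kinase induced by serum and glucocorticoids, near Tnfaip3, which restrains NF-kB, and near Marcks, an actin-binding substrate of protein kinase C. At the cluster 90.7 to 108 kb from Sgk1 the sums over 9 windows were 1579.6, 1660.2 and 1589.6 in control, 1366, 1436 and 1393 with CK666 and 886, 908 and 868 with CytoD. Near Tnfaip3 they were 829.7 to 907, 712 to 799 and 385 to 452, and near Marcks 726 to 795, 674 to 816 and 336 to 452. The others were in an intron of Galnt18 and near Piezo2, a mechanically gated ion channel. Clusters of gains with CytoD held 4 windows 133 to 146 kb from Lyplal1, with sums of 180.3 to 186 in control, 193 to 274 with CK666 and 368 to 452 with CytoD, and 3 windows in an intron of Trabd2b, with 691 to 696, 625 to 707 and 1237 to 1396.

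Distal windows were also grouped by the gene of the nearest start, for lists of genes of this lineage. Mesenchymal and skeletal transcription factors had distal windows at 46 of 53 genes. Among their 2246 windows, 60 gained (2.67%) and 40 lost (1.78%) with CK666, and 29 (1.29%) and 57 (2.54%) with CytoD. Over all distal windows the shares were 2.22% and 1.48% with CK666 and 1.15% and 1.86% with CytoD, and over all tested windows 1.88% and 1.05%, and 0.98% and 1.4%. At Zeb2, 6 of 199 windows gained and 11 lost with CK666, and 4 and 6 with CytoD. Around Sox9, the master factor of cartilage, the counts were 2 and 3, and 1 and 4, of 169 windows. Tbx18, a factor of mesenchyme, had 0 gains and 6 losses with CytoD among 42 windows, and Mecom had 5 gains and 0 losses with CK666 among 37.

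The other lists are read against the same shares, 2.22% gains and 1.48% losses with CK666 and 1.15% and 1.86% with CytoD over all distal windows, and 1.88% and 1.05%, and 0.98% and 1.4%, over all tested windows. Genes responsive to actin, YAP, SRF and AP-1 had distal windows at 11 of 34 genes, 370 in all, mostly around Myc (196) and Thbs1 (64). With CytoD, 3 gained (0.811%) and 17 lost (4.59%), 9 of them around Myc, and with CK666 12 gained (3.24%) and 6 lost (1.62%). In the direct contrast 19 were higher with CK666 and 1 lower. The median log2 fold change was 0.09 with CK666 and -0.11 with CytoD, while over all autosomal windows it was 0.02 and 0.04. Adipogenic genes had 440 windows at 13 of 23 genes, with 14 gains (3.18%) and 6 losses (1.36%) with CK666 and 5 (1.14%) and 10 (2.27%) with CytoD, and Nfib, a factor of fat cell identity, had 5 of the gains with CK666. Osteogenic genes had 258 windows at 10 of 21 genes, with 5 gains (1.94%) and 1 loss (0.388%) with CK666 and 2 (0.775%) and 6 (2.33%) with CytoD. Neuronal genes, a list from another lineage, had 1207 windows at 37 of 43 genes, with 25 gains (2.07%) and 10 losses (0.829%) with CK666 and 8 (0.663%) and 10 (0.829%) with CytoD. Of these windows 330 were in the 2 highest openness bins.

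The most open windows more than 500 kb from any protein-coding start had no call with either treatment. The first, at chr10:56921187-56921712, is 542 kb from Gja1, the gap junction protein connexin 43. It had 1673, 1745 and 1783 counts in control, 1706, 1586 and 1803 with CK666 and 1442, 1403 and 1354 with CytoD. The CytoD libraries lay below the other 6, at -0.31 on the log2 scale (standard error 0.07, adjusted p = 0.000467), which does not reach the fold limit, and with CK666 it was -0.03 (adjusted p = 0.852). The next, at chr11:111688378-111688895, lies 622 kb from Kcnj2 in the gene desert before Sox9, with 1275 to 1558, 1420.4 to 1492 and 1229.8 to 1318 counts. The last, at chr13:78809652-78810167, is 609.9 kb from Nr2f1, a nuclear receptor of neural crest and mesenchyme, with 1202 to 1355, 1291 to 1416 and 944 to 1096 counts, and its log2 fold change with CytoD was -0.32 (adjusted p = 0.0011).

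The 4 h libraries, with their own controls, show how early the changes with CK666 are present. Over all 306819 windows tested at 4 h, 0.589% were called as gains and 0.428% as losses. Of the 1756 distal windows that gained at 24 h, 1448 overlapped a window tested at 4 h, and 1364 of those (94.2%) had a log2 fold change above 0, with a median of 0.68. Of them 258 (17.8%) were already called as gains and 0 as losses. Of the 1168 distal windows lost at 24 h, 1149 had a match, 953 (82.9%) were below 0 with a median of -0.33, and 48 (4.18%) were called as losses and 1 as a gain. Among the 55030 matched distal windows without a call at 24 h, 51.4% were above 0, and 0.402% and 0.380% were called. Intergenic and intronic windows were alike, with 94.4% and 94.1% of gains above 0 and 82.7% and 83.5% of losses below 0. Depth and window borders differ between both tables, and the size of the changes at 4 h and 24 h was not tested against each other.

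The named windows show the range. In the Dlgap1 intron, 4 h controls had 21.4, 21.0 and 7.5 counts and CK666 libraries 95.5, 123 and 119, a log2 fold change of 2.75 (adjusted p = 3.09e-14). The Tpd52 window had 22.5, 6.31 and 8.57 in control and 59.7, 39.8 and 42.1 with CK666 (1.91, adjusted p = 2.59e-05). Both were partly open at 4 h and did not overlap with control. The Tom1l1 window had lost accessibility by 4 h, from 606, 642 and 643 counts to 257, 258 and 259 (-1.29, adjusted p = 3.56e-21), and the Fhit window was at 326, 375 and 337 against 207, 258 and 200.1 (-0.64, adjusted p = 7.1e-06, short of the fold limit). Other named losses had no call at 4 h. Some were lower and short of the fold limit. Those near Mdga2 and Nav3 had log2 fold changes of -0.79 (adjusted p = 3.18e-08) and -0.75 (adjusted p = 1.02e-09). Those in Wdr7 and A830018L16Rik had -0.54 (adjusted p = 4.11e-06) and -0.51 (adjusted p = 4.3e-06). In others the CK666 and control libraries overlapped. The window near Stim2 stood at 199 to 219 counts in control and 188 to 209.6 with CK666, and that of Hmgcll1 at 161 to 182 and 174 to 208. At Rspo2, 31 of 36 matched windows were below 0 at 4 h, with a median of -0.71 and 9 called losses.

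**Figure D5:**
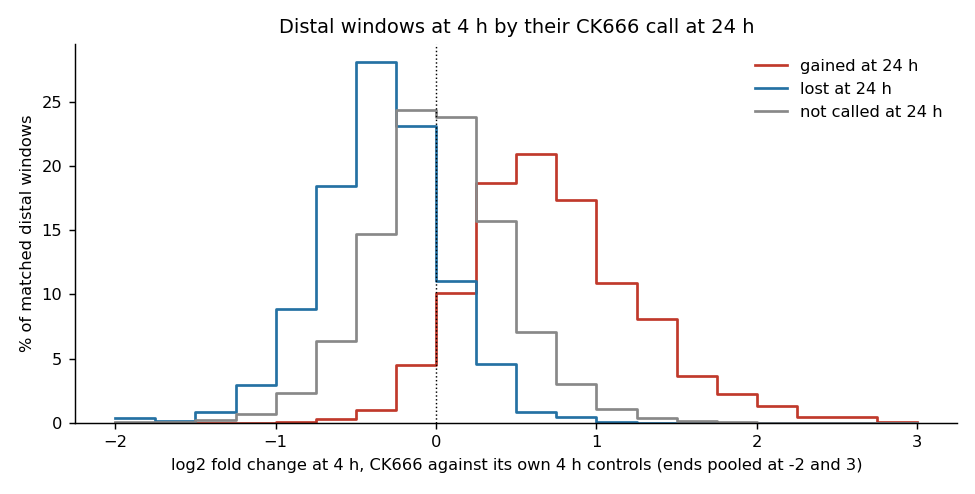
Distribution of log2 fold changes with CK666 at 4 h, against the 4 h controls, for distal windows that gained, lost or were not called at 24 h, as percent of the matched windows of each set, with values beyond the ends of the axis pooled. The set that gained lies to the right of 0 (median 0.68), the set that lost to the left (median -0.33), and windows without a call are centred on 0.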

How the data were processed

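The authors aligned reads to mm10 (as named per the labels) with the PEPATAC pipeline and bowtie2, called peaks with MACS2, and deposited a table of read counts in a common set of windows. For these tools, versions and settings: not given in the sources used here. The deposited counts are whole numbers that were not normalized. All 3 control, 3 CK666 and 3 CytoD libraries at 24 h were fitted together with edgeR 4.0.16 (R 4.3.3), with TMM factors, its default filter on low counts, the quasi-likelihood test and Benjamini-Hochberg adjustment over the 300323 windows tested on all chromosomes. The 4 h table was fitted separately. Calls needed both a log2 fold change beyond 1 and an adjusted p under 0.01. Normalized counts are TMM-scaled CPM times 18.6, the mean effective library size in units of 1e+06 counts. Depth limits precision most in weak windows. Distances and classes came from GENCODE vM21 (GRCm38). No window ran past a chromosome end, and 56.3% of protein-coding starts fell in a window, compared with 16.6% after a shift of 20000 bp. Sequences were read from the GRCm38 genome of RefSeq, and motifs were searched with Python 3.11.15.

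Windows were named by rule, among called windows that averaged 50 or more normalized counts and whose treated and control libraries did not overlap. Per treatment, direction and kind of window these were the 3 largest changes, and for the direct contrast the 2 largest each way. To these were added the 5 largest clusters, the 5 host genes and 5 intervals with the most calls, and the 3 most open windows more than 500 kb from a start. A subset of them is described in full. The span at Rspo2 was chosen after its values were seen. The members, gene lists and tests were chosen with earlier results of these data known. The test was checked on simulated data. Alternatives were other scalings, filters, distances, thresholds, offsets for GC and openness, DESeq2 1.42.0, a replicate block and leaving out each library. Another 9 libraries with siRNA and 6 of NIH 3T3 cells were left out.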

Additional observations from a re-analysis of the deposited data

How the results depend on the processing

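Of the 714 alternative values of the 34 results on single named windows, 712 kept their side of the threshold. The other 2 (the Gja1 and Nr2f1 windows with CytoD) passed only when the fold limit was dropped. Direction was compared for called values only. The uncalled log2 fold change of the Kcnj2 window with CK666 was 0.01, and it ran from -0.09 to 0.04 with each library left out. Of the 276 alternative counts of called windows, 241 stayed within 1.5 times the count reported. No called value changed its sign, but several balances of gains and losses turned. With no fold limit CK666 losses exceeded gains in intergenic windows, intronic gains exceeded losses with CytoD under total counts, TMM on windows at starts, openness offsets and a mean of at least 20 counts, and in the direct contrast windows lower with CK666 exceeded those higher with TMM on windows at starts, and in intronic windows with that same filter. Uncalled medians changed sign for CytoD in intergenic windows with openness offsets and for CK666 in intronic windows without control replicate 1. Depth limits calls in the lower openness bins, and with 3 libraries per group a single library can decide a count.

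Counts that moved further are given as gains and losses, or for the direct contrast as higher and lower with CK666. With windows more than 50 kb from a start of any gene type, which by construction are fewer, they were 417 and 363 intergenic and 250 and 129 intronic with CK666, 201 and 393 and then 124 and 177 with CytoD, and 558 and 307 and then 293 and 170 in the direct contrast. With an adjusted p under 0.05 and no fold limit they were 2955 and 3248 and then 1091 and 1056 with CK666, 2155 and 4026 and then 870 and 1286 with CytoD, and 4277 and 2853 and then 1467 and 1023 in the direct contrast. With a limit of 100 kb, 210 and 99 intronic windows were called with CK666, 397 intergenic windows gained and 102 and 136 intronic windows were called with CytoD, and 218 and 144 intronic windows in the direct contrast.

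The median log2 fold change is small, and scaling moves it by more than the spread between replicates. In the order CK666 intergenic, CK666 intronic, CytoD intergenic and CytoD intronic it was -0.026, -0.028, 0.033 and 0.054 with DESeq2 size factors, -0.032, -0.035, 0.118 and 0.140 with TMM on windows at starts, -0.033, -0.034, 0.029 and 0.048 without a filter, -0.033, -0.048, 0.0020 and 0.012 with a mean of at least 20 counts, -0.024, -0.027, 0.035 and 0.055 with GC offsets, and -0.028, -0.028, 0.038 and 0.058 with DESeq2. With openness offsets, which were added after seeing the data, it was -0.035, -0.038, -0.010 and 0.0087. For CytoD alone it was 0.124 and 0.145 with total counts and 0.023 and 0.044 with TMM on distal windows, and for CK666 intergenic -0.021 with any gene type.

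The replicate numbers do not pair the libraries, since deviations of libraries with the same number correlated at -0.0128 to 0.0233 and those with other numbers at -0.0386 to 0.0311. With a replicate block the counts were 1202 and 885 intergenic and 465 and 227 intronic windows with CK666, 597 and 1120 and then 238 and 301 with CytoD, and 1489 and 806 and then 509 and 316 in the direct contrast. With the replicate block and GC offsets together the medians were -0.022, -0.027, 0.034 and 0.053. No call on a named window changed under the block.

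With each library left out in turn, CK666 gave 906 to 1264 gains and 774 to 976 losses in intergenic and 343 to 477 and 201 to 274 in intronic windows. CytoD gave 409 to 564 and 969 to 1298, and then 159 to 231 and 258 to 378, and the direct contrast 1194 to 1628 and 653 to 876, and then 389 to 561 and 247 to 339. The medians ran from -0.040 to -0.0041 and from -0.038 to 0.0014 with CK666, and from 0.015 to 0.048 and from 0.033 to 0.071 with CytoD.

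The difference between CytoD and control in the share of autosomal counts, in percentage points, was -0.234 beyond 100 kb and -0.475 with a mean of at least 20 counts for intergenic windows, and -0.093 with the latter for intronic ones. In the most open intergenic bin, the gains and losses with CK666 and with CytoD were 1.46%, 6.97%, 0.753% and 9.21% when control libraries at 24 h defined openness, and 1.18%, 7.02%, 0.170% and 11.8% when 4 h controls did. Without division by length, gains were 3.03% with CK666 and 1.59% with CytoD, and losses with CytoD were 6.71%. The motif shares in the 2 highest bins were added after seeing the data. The cause of these shifts was not tested.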

Other observations

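Long genes and gene-poor intervals were also described by all their windows together. Host genes and intervals with at least 20 tested distal windows, 337 and 894 of them, were ranked by the median log2 fold change of those windows. The rank was taken from the values it describes, so it carries no test. With CK666 the host medians ran from -0.75 to 0.59, with 5% of them under -0.29 and 5% above 0.32, and with CytoD from -0.57 to 0.89.

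Rspo2 stood lowest with CK666. The largest cluster of CK666 losses lies at its far end, in exonic and intergenic windows that are not among these intronic ones. Galnt18, an enzyme that starts O-linked glycans, came next, with 36 of 43 windows below 0 and a median of -0.59. Summed over its windows, Galnt18 had 1330.4, 1580.03 and 1515 normalized counts in control, 953, 960.001 and 1000.2 with CK666 and 1141, 1124 and 1158 with CytoD. The CK666 libraries were the lowest of the 9, and at 4 h the median was -0.70, with 32 of 34 matched windows below 0. The intervals beside both genes were also the lowest of all, at -0.55 between Angpt1 and Rspo2 and at -0.53 between Eif4g2 and Galnt18. The interval between Angpt1 and Rspo2 includes the intergenic windows of the cluster of losses, so it is not separate from that cluster.

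Hmga2, an architectural chromatin protein of proliferating mesenchyme, was low with both treatments, with medians of -0.46 with CK666 (22 of 24 windows below 0) and -0.57 with CytoD (21 of 24). In Aig1 the median was -0.57 with CytoD and -0.12 with CK666.

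Pde1c, a phosphodiesterase of cyclic nucleotides, was highest with CK666, with a median of 0.59, 29 of 35 windows above 0 and 2 called gains. Its sums were 1295, 1479 and 1390 in control, 2022, 1891 and 1889 with CK666 and 1309, 1243 and 1212 with CytoD. The CK666 libraries stood above the other 6, and at 4 h the median was 0.09. Between Snx7 and Dpyd the median was 0.66 with CK666 and 0.39 with CytoD, with 39 and 40 of 46 windows above 0, and 5 called gains with CK666 and 0 with CytoD. At 4 h it was 0.32, with 30 of 36 matched windows above 0.

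The highest medians with CytoD were in Grin2b (0.89), a glutamate receptor subunit of neurons, Btbd11 (0.87) and Sdk1 (0.81). Their windows were weak, with median openness of 0.919, 0.986 and 0.812 CPM per kb, all below the limit of the lowest of the 5 openness bins, and there were 0, 0 and 2 called gains with CytoD.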
